A study of Mus musculus with 20 samples.

Results

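The level of the microRNA (miRNA) miR-206-3p was followed across 20 mouse hearts sequenced for small RNA. It is 1 of the 1545 entries of the deposited table, and it was chosen by name, with its values in these hearts already known, so its levels are given as a description without a test. The hearts came from C57BL/6J mice in 4 groups: 7 hearts with myocardial infarction and CIH (MI+CIH), 4 with infarction alone (MI), 4 with CIH alone, and 5 sham hearts. The labels do not spell out CIH, which was taken to mean chronic intermittent hypoxia, brief and repeated drops of the oxygen breathed in. How infarcts were made, the time after infarction, the hypoxia schedule, and the age and sex of the mice are not given in the sources used here. No engineered allele is named for any group. The labels name the tissue as heart, without saying which region was taken or whether each library came from a separate mouse, so the spread between libraries may be partly technical.

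miRNAs are short RNAs that pair with messenger RNAs, mainly through a stretch near their 5′ end called the seed, and lower the output of those messengers. miR-206 belongs to the miR-1 family and shares its seed with miR-1. miR-1 is abundant in both heart and skeletal muscle, whereas miR-206 is known as a miRNA of skeletal muscle, where it rises as myoblasts differentiate and as muscle regenerates, and it is known to be scarce in the adult heart. Its gene lies next to that of miR-133b, and transcripts that span the miR-206/miR-133b locus are known from muscle cells.

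The Mir206 hairpin lies on the forward strand of chromosome 1 of GRCm38.p6, at chr1:20679010-20679082, and Mir133b lies 3686 bases downstream at chr1:20682769-20682887. Both lie within the span of the long noncoding RNA gene Lincmd1 (chr1:20669882-20682958). The sequences, from RefSeq on that build, are shown because the results compare a miRNA with the partner from its own locus. In the hairpin, the capitals mark miR-206-3p, and in the mature miRNAs they mark the seed, bases 2 to 8.
Mir206 hairpin: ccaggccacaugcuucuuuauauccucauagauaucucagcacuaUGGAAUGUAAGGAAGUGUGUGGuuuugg
miR-206-3p: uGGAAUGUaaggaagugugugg
miR-133b-3p: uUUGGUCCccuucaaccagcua
Mature miR-206-3p (chr1:20679055-20679076) and miR-133b-3p (chr1:20682834-20682855) are each 22 bases long and carry different seeds. Among the 1210 table entries with a RefSeq sequence, no other had the seed of miR-206-3p, and the sequence of miR-1a-3p was not analysed here. The table has no row for miR-206-5p, the other arm of the hairpin, or for miR-133b-5p, so neither was analysed here.

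Levels are in RPM, a miRNA's reads per 1000000 reads given to miRNAs in that library. Libraries held 1991323 to 18138415 reads, so that 1 read was worth 0.0551 to 0.502 RPM. The libraries fell into 3 sets by their overall profiles, called A, B and C here. In set A were MI+CIH 1, MI 2 and every CIH and sham heart. MI+CIH hearts 2, 3, 4 and 5 formed set B together with MI hearts 1 and 3. MI+CIH hearts 6 and 7 formed set C together with MI heart 4. Pearson's r was 0.908 to 0.994 between libraries of the same set and 0.7097 to 0.932 between sets. The labels name no such sets. With no CIH or sham heart in sets B and C, set and infarction cannot be told apart except through MI 2 and MI+CIH 1. Against its label, sham 1 had 100570 RPM of miR-21a-5p, a miRNA known to be raised in injured hearts, against 17878 to 28616 RPM in the other sham hearts. MI hearts 1 to 4 had 20198, 17547, 15334 and 7732 RPM, within or below the range of those sham hearts. MI+CIH hearts had 8888 to 108142 RPM, with the highest in MI+CIH 1. This miRNA therefore did not separate infarcted from sham hearts here. MI 2 is the one MI heart whose profile lay with the sham hearts in set A. The differences of miR-206-3p are given with and without sham 1 and MI 2.

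miR-206-3p was nearly absent from sham hearts and was high in 6 of the 7 MI+CIH hearts and in 1 of the 4 MI hearts. In MI+CIH hearts 1 to 7 it had 2.44, 217, 189, 89.9, 437, 20.1 and 33.7 RPM. In MI hearts 1 to 4 it had 2.29, 0.138, 370 and 0.882 RPM. In CIH hearts 1 to 4 it had 0.140, 0, 4.74 and 0 RPM. In sham hearts 1 to 5 it had 0.183, 0.135, 0.0977, 0.175 and 0 RPM. All 7 MI+CIH hearts lay above every sham heart, and 6 of them above every CIH heart. The MI hearts spanned both ends of the range, with MI 3 among the highest of all hearts and MI 2 within the sham range. Only 1 CIH heart, CIH 3, lay above the sham hearts, and it also lay above MI 1, MI 2, MI 4 and MI+CIH 1. A high level was therefore not shared by all infarcted hearts, and a few RPM were also seen in a heart labelled as uninfarcted.

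**Figure D1:**
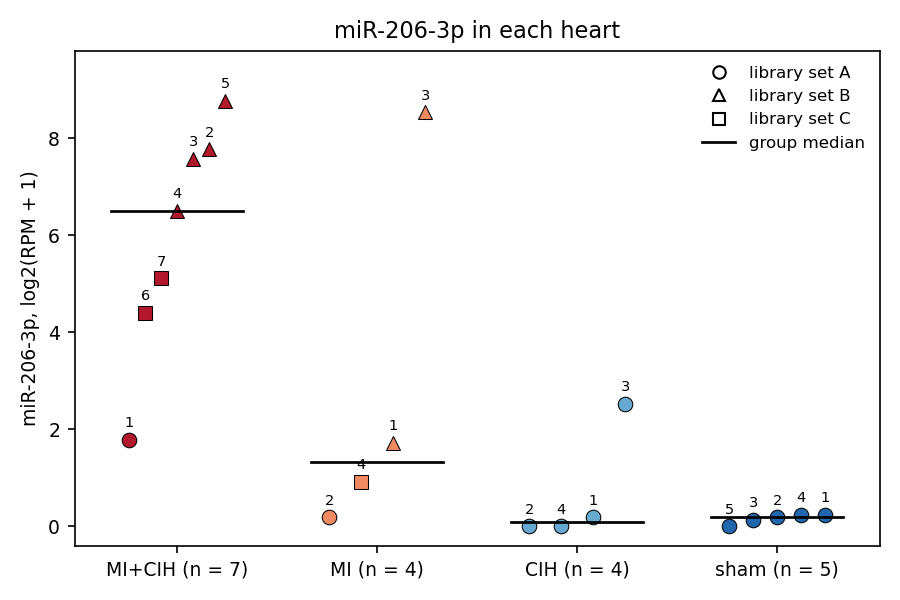
Level of miR-206-3p in each heart as log2(RPM + 1), with 1 point per heart, its replicate number above it, the library set as the point shape and the group median as a line. Of the MI+CIH hearts, 6 of 7 stand above 4 on this scale, MI 3 stands near them, and CIH 3 is the one CIH or sham heart that stands clear of 0.

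The read counts behind these levels were unequal. miR-206-3p had 44, 1419, 388, 179, 2570, 266 and 410 reads in MI+CIH hearts 1 to 7, and 21, 2, 1254 and 16 reads in MI hearts 1 to 4. It had 1, 0, 49 and 0 reads in CIH hearts 1 to 4, and 2, 1, 1, 1 and 0 reads in sham hearts 1 to 5. The values from 20.1 RPM upward thus rest on 179 to 2570 reads each, while the sham values rest on 0 to 2 reads. The exact 95% Poisson interval was 3.50 to 6.26 RPM in CIH 3 and 1.77 to 3.28 RPM in MI+CIH 1, and these intervals cover counting error only. The 5 sham libraries together held 5 miR-206-3p reads among 41122001, or 0.122 RPM (0.0395 to 0.284). Taking 3 reads as the limit that a count of 0 allows, the limit was 0.250 RPM in CIH 2, 0.253 RPM in CIH 4 and 0.439 RPM in sham 5. Differences among the sham hearts, CIH 1, CIH 2, CIH 4 and MI 2 were therefore not detectable at this depth.

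Group means depended on single hearts. miR-206-3p averaged 141 ± 155 RPM in MI+CIH hearts (SD, n = 7, median 89.9), 93.4 ± 185 RPM in MI hearts (n = 4, median 1.59), 1.22 ± 2.35 RPM in CIH hearts (n = 4, median 0.0699) and 0.118 ± 0.0743 RPM in sham hearts (n = 5, median 0.135). Without MI 3 the MI mean was 1.10 RPM, and without CIH 3 the CIH mean was 0.0466 RPM. Without MI+CIH 5 the MI+CIH mean was 92.1 RPM, just under the MI mean of 93.4 RPM. With all hearts the order of group means ran from MI+CIH to MI, CIH and sham, but the SD was larger than the mean in the first 3 of these groups, and MI and MI+CIH hearts overlapped, with 6 of 7 MI+CIH hearts inside the MI range. By medians, CIH hearts stood below sham hearts, at levels under 3 reads in either group.

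Where it was high, miR-206-3p was a well represented miRNA. It ranked 86th of the 1545 entries in MI 3, 89th in MI+CIH 5 and 105th in MI+CIH 2, against 527th to 625th in the sham hearts. Its level varied between hearts more than that of almost any other entry: its SD over the 20 hearts was 3.31 on the log2(RPM + 1) scale, the second highest of the 360 entries tested, against a median of 1.20. Only 7 libraries, 6 of MI+CIH and MI 3, reached the 5 RPM by which an entry entered the test, so miR-206-3p passed that filter through the hearts in which it was high. Library sets accounted for 75.2% of its variance, against 79.5% for the median entry.

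Within each library set, MI+CIH hearts could be set beside MI hearts of the same set. In set A, MI+CIH 1 had 2.44 RPM, against 0.138 RPM in MI 2, a ratio of 17.7 with a 95% counting interval of 4.62 to 151. In set C, MI+CIH 6 and MI+CIH 7 had 20.1 and 33.7 RPM, against 0.882 RPM in MI 4, with ratios of 22.8 (13.8 to 40.5) and 38.2 (23.2 to 67.4). In set B, the 4 MI+CIH hearts had 89.9 to 437 RPM, against 2.29 RPM in MI 1 and 370 RPM in MI 3. MI+CIH hearts were thus higher in 8 of the 11 pairs that share a set, and the other 3 pairs all contain MI 3. The pairs reuse hearts and are not independent. All 4 MI+CIH hearts of set B were set beside both MI 1 and MI 3, and both of set C beside MI 4. Only MI+CIH 5 exceeded MI 3, by a ratio of 1.18. In set A, which alone holds uninfarcted hearts, MI+CIH 1 lay above all 5 sham hearts and below CIH 3, and MI 2 lay within the sham range.

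On the log2(RPM + 1) scale the largest difference was that between MI+CIH and sham hearts. The log2 difference of miR-206-3p was 5.83 (SE 1.18) in MI+CIH against sham hearts, the largest of the 360 entries, whose median was 1.39. Against CIH hearts the MI+CIH difference was 5.31 (SE 1.26), again the largest, beside a median of 1.51. Against MI hearts it was 3.15 (SE 1.26), also the largest, beside a median of 0.41. Without MI 3 that difference was 5.05. In MI against sham hearts it was 2.68 (SE 1.35), beside a median of 0.94, and 0.78 without MI 3. In CIH against sham hearts it was 0.52 (SE 1.35), beside a median of -0.21, and without CIH 3 it was -0.10. Without both sham 1 and MI 2 it was 5.85 in MI+CIH against sham hearts, 2.27 in MI+CIH against MI hearts and 3.58 in MI against sham hearts. The comparisons with sham share the sham hearts, and those of MI+CIH share the MI+CIH hearts. Each SE comes from a spread shared by all groups in the fit. The SD of the log2 level was 2.40 in MI+CIH, 3.85 in MI, 1.23 in CIH and 0.0985 in sham hearts. The SE is therefore too small for the spread of MI+CIH against MI hearts and too large for that of CIH against sham hearts.

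A mean for each library set in the fit lowered the differences of MI+CIH and MI hearts from uninfarcted hearts and left CIH against sham hearts at 0.52. With the set as a term, the log2 difference of miR-206-3p was 2.17 (SE 1.18) in MI+CIH against sham hearts and 1.65 (SE 1.22) in MI+CIH against CIH hearts, and it was -0.52 (SE 1.18) in MI against sham hearts. MI+CIH against MI hearts changed little, to 2.69 (SE 0.84, again from a spread shared by all groups). miR-206-3p was still the entry with the largest difference there, beside a median of 0.27. On recovered reads edgeR gave 0.43 and DESeq2 0.24 for this pair, in fits that change the model and the scaling together. MI 3 held 1254 of the 1293 miR-206-3p reads of the MI hearts. With pseudocounts of 0.5 and 5 RPM the log2 difference was 6.65 and 3.87 in MI+CIH against sham hearts, where sham levels lie below the pseudocount, and 3.16 and 1.73 in MI against sham hearts.

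**Figure D2:**
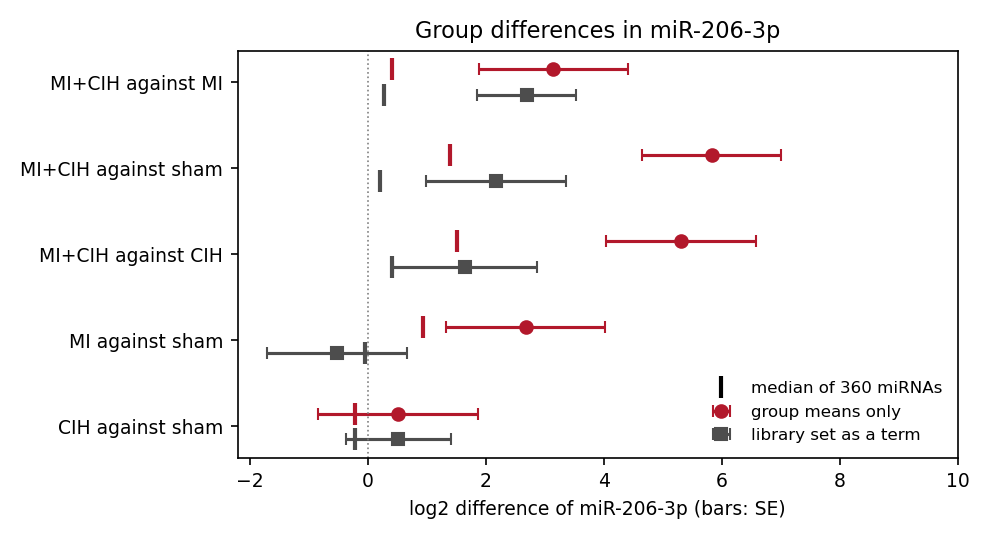
Log2 difference of miR-206-3p in 5 comparisons, as circles from group means and as squares with the library set as a term, with bars for 1 SE and vertical ticks for the median of the 360 miRNAs tested. Each SE comes from a spread shared by all groups, not from the groups compared. MI+CIH against MI hearts stays near 3 in both fits, at 3.15 and 2.69, while MI+CIH against sham hearts is 5.83 in one and 2.17 in the other.

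miR-133b-3p, the neighbour of miR-206 at its locus and a miRNA of heart and skeletal muscle, did not follow it. It had 130, 365, 58.0, 27.6, 513, 110 and 151 RPM in MI+CIH hearts 1 to 7, and 458, 96.0, 88.3 and 141 RPM in MI hearts 1 to 4. It had 188, 93.9, 33.9 and 106 RPM in CIH hearts 1 to 4, and 194, 191, 107, 95.8 and 123 RPM in sham hearts 1 to 5. It was thus read in every heart, and its groups overlapped throughout. miR-133a-3p was far more abundant, at 1533 to 23097 RPM, and MI+CIH 5, MI 1 and MI+CIH 2 were the highest hearts for both. Whether reads of miR-133a-3p were counted as miR-133b-3p was not tested. In limma its log2 difference was -0.05 (SE 0.63, adjusted p = 0.943) in MI+CIH against sham hearts and -0.22 (SE 0.67, adjusted p = 0.919) in MI+CIH against MI hearts. It was 0.55 (SE 0.67, adjusted p = 0.486) in MI+CIH against CIH hearts and 0.17 (SE 0.72, adjusted p = 0.868) in MI against sham hearts.

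The balance of the pair, by the reads given to each, therefore differed widely between hearts. For every 100 miR-133b-3p reads there were 1.87, 59.5, 326, 325, 85.2, 18.2 and 22.3 miR-206-3p reads in MI+CIH hearts 1 to 7, and 0.4996, 0.144, 419 and 0.6245 in MI hearts 1 to 4. In CIH 3 there were 14.0, and in sham hearts 0 to 0.183. miR-206-3p exceeded its partner in MI+CIH 3, MI+CIH 4 and MI 3 only. In MI 1, miR-133b-3p was at 458 RPM, the second highest of all hearts, with miR-206-3p at 2.29 RPM, and in CIH 3 miR-133b-3p was lowest of the uninfarcted hearts while miR-206-3p was highest.

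miR-1a-3p, the miR-1 family member of heart muscle, exceeded miR-206-3p by far in every heart. It had 178754, 102847, 99922, 141425, 69203, 234531 and 262684 RPM in MI+CIH hearts 1 to 7, and 161002, 293893, 150800 and 287381 RPM in MI hearts 1 to 4. It had 245804, 281399, 314224 and 308132 RPM in CIH hearts 1 to 4, and 189056, 268876, 267785, 272753 and 261221 RPM in sham hearts 1 to 5. Per 1000000 miR-1a-3p reads there were 13.7 to 6310 miR-206-3p reads in MI+CIH hearts, 0.470 to 2455 in MI hearts, 0 to 15.1 in CIH hearts and 0 to 0.966 in sham hearts. Even in MI+CIH 5, where miR-1a-3p was lowest and miR-206-3p highest, miR-206-3p was a small part of the reads of this family. The entry miR-1b-5p repeats miR-1a-3p within 0.223% in every library and is not independent of it.

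**Figure D3:**
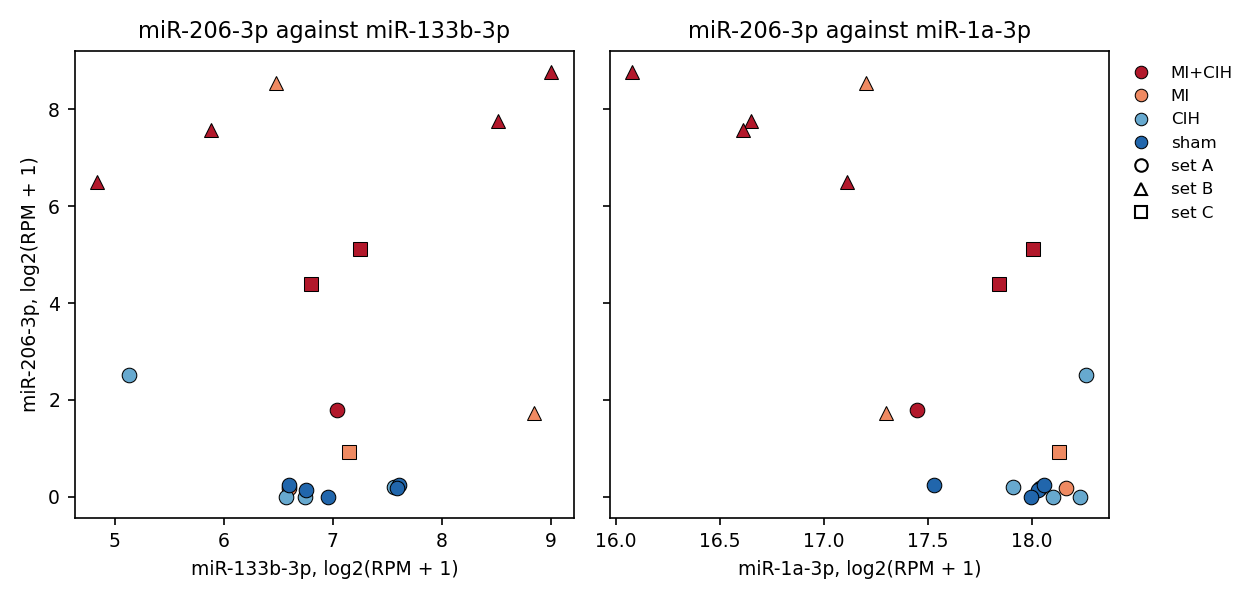
miR-206-3p against miR-133b-3p (left) and miR-1a-3p (right) in the 20 hearts, all as log2(RPM + 1), with colours for groups and shapes for library sets. Hearts with high miR-206-3p span the whole range of miR-133b-3p on the left, while on the right the 5 hearts above 6 on the miR-206-3p axis are all set B hearts at or below 150800 RPM of miR-1a-3p.

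The other miRNAs of muscle moved in both directions in MI+CIH hearts. Of all entries tested, 52.2% were higher and 4.44% lower in MI+CIH against sham hearts at an adjusted p under 0.05 in limma, 56.7% in all. With other scalings the calls were less one-sided, with 61 higher and 51 lower by median-of-ratios and 51 higher and 63 lower by TMM. The miR-1 entry and its copy fell, miR-1a-3p by 0.82 on the log2 scale (SE 0.32, adjusted p = 0.0313). Of 8 tested miRNAs on a list of other muscle miRNAs, 3 rose and 3 fell, with a median log2 difference of 1.16 beside 1.39 for all entries. miR-499-5p, made from an intron of a myosin heavy chain gene, fell by 1.84 (SE 0.43, adjusted p = 0.00272). miR-208a-3p, made from an intron of the adult cardiac myosin gene Myh6, fell by 1.82 (SE 0.67, adjusted p = 0.0265), and miR-133a-5p fell by 1.21 (SE 0.46, adjusted p = 0.0307). The other arm, miR-208a-5p, went the other way at 1.96 (SE 0.98, adjusted p = 0.0899 in limma), not called. Without MI+CIH 1, 6 or 7 it was called higher, at an adjusted p of 0.0277 to 0.0497 in limma. With the library set as a term it was -0.86. miR-133a-3p rose by 1.60 (SE 0.51, adjusted p = 0.0150), and miR-486a-5p, a miRNA of muscle and red blood cells, rose by 2.51 (SE 0.78, adjusted p = 0.0133), together with its other arm miR-486a-3p. The reads of the miR-486a arms were close in every library, such as 18632 each in MI+CIH 6. Their rises cannot be counted as independent. The log2 difference of miR-206-3p, 5.83, lay above all of these. The call of miR-486a-5p was lost with median-of-ratios scaling (1.11, adjusted p = 0.135), TMM (0.89, adjusted p = 0.178) and edgeR (1.21, adjusted p = 0.0902). The log2 difference of miR-133a-3p was 0.20 with median-of-ratios scaling and -0.02 with TMM, neither of them called, and with the library set as a term that of miR-133a-3p was -0.13 and that of miR-486a-5p -0.48.

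None of these calls held with the library set as a term, with which 0 of the 360 entries were past the threshold in limma (21 at an unadjusted p under 0.05). The sets were cut from these same data, and in that fit the comparison with sham rests on MI+CIH 1 and MI 2. That loss therefore cannot decide whether the calls hold. The call of miR-1a-3p was also lost, at an adjusted p of 0.0620 to 0.0686 in limma, without MI+CIH 2, 3 or 5 or sham 2, 3, 4 or 5. That of miR-208a-3p was lost, at 0.0517 to 0.0605, without MI+CIH 3, 4 or 5 or sham 1, 3 or 5, and it was 0.0563 without both sham 1 and MI 2. That of miR-133a-5p was lost, at 0.0524 to 0.0715, without MI+CIH 3, 4 or 5 or sham 3, 4 or 5. miR-499-5p was present in every library. It had 419 RPM or more in MI+CIH hearts, 1202 RPM or more in MI hearts, 1923 RPM or more in CIH hearts and 1751 RPM or more in sham hearts. miR-208a-3p had 3.01 to 93.2 RPM in MI+CIH hearts and 54.2 to 99.9 RPM in sham hearts. Its lowest values, in MI+CIH 3 and MI+CIH 4, rest on 13 and 6 reads.

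MI+CIH against CIH hearts gave a similar split, with 54.7% of all entries called higher and 2.22% lower in limma, 56.9% in all. It was 49 higher and 48 lower with median-of-ratios scaling, 37 and 53 with TMM, and 38 and 37 in edgeR. The miR-1 entry and its copy fell, and of the 8 other muscle miRNAs 3 rose and 1 fell. The 3 again include both arms of miR-486a, which are not independent. miR-499-5p fell by 2.16 (SE 0.46, adjusted p = 0.00199) and miR-1a-3p fell by 1.02 (SE 0.34, adjusted p = 0.0162). With the library set as a term these were -0.97 (adjusted p = 0.283 in limma) and -0.59 (adjusted p = 0.266). The call of miR-486a-5p there was lost, at an adjusted p of 0.0501 and 0.0633 in limma, without CIH 2 or CIH 4. That of miR-486a-3p was lost, at 0.0532 to 0.0691, without MI+CIH 2, 3 or 4 or CIH 2 or 4. In MI+CIH against MI hearts limma called 0% of entries and no muscle miRNA of the lists. The unadjusted p was under 0.05 for 17 entries there, and neither edgeR nor DESeq2 called any. limma also called 0% in MI against sham hearts (101 unadjusted, 0 by edgeR, 39 by DESeq2, 113 by limma without MI 2) and 0% in CIH against sham hearts (1 unadjusted, 0 by edgeR, 1 by DESeq2). The 113 without MI 2 include miR-133a-3p, both arms of miR-486a, miR-181a-5p, miR-214-3p and miR-24-3p.

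A list of 9 miRNAs reported to rise as mouse myoblasts differentiate, all of them tested, stood beside miR-206-3p as a comparison from the same process. In MI+CIH against sham hearts 3 rose and 0 fell, with a median log2 difference of 0.63, below the 1.39 of all entries, and 52.2% of all entries were higher. miR-214-3p, which is also made by fibroblasts, rose by 3.75 (SE 0.90, adjusted p = 0.00299 in limma), miR-181a-5p by 2.16 (SE 0.51, adjusted p = 0.00286), and miR-24-3p by 1.07 (SE 0.39, adjusted p = 0.0254). The call of miR-181a-5p was lost with TMM scaling (0.54, adjusted p = 0.116) and in edgeR (0.53, adjusted p = 0.133). The log2 difference of miR-24-3p was -0.55 with TMM and -0.33 with median-of-ratios scaling, and its call was lost, at an adjusted p of 0.0501 to 0.0684 in limma, without MI+CIH 2, 3 or 5 or sham 2 or 3. The other 6 members, among them miR-322-5p and miR-503-5p, were not called. Against CIH hearts the same 3 members rose, with a list median of 1.06 beside 1.51. That of miR-181a-5p was 0.32 to 0.52 there, and not called, with median-of-ratios scaling, TMM, edgeR and DESeq2. With the library set as a term none of the list was called in either comparison. The call of miR-24-3p in that comparison was lost, at 0.0508 and 0.0666, without CIH 2 or CIH 4.

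Within the library sets few miRNAs varied with miR-206-3p. Likeness was measured as Pearson's r of log2(RPM + 1) over the 20 hearts after removing the mean of each library set, for 357 miRBase-named miRNAs, and it is given as a description, since correlations entered the choice of miR-206-3p and all miRNAs of a heart share its library and depth. It reached 0.64 at most, with a median of 0.09 and a minimum of -0.62. With no mean removed, r was over 0.8 for 106 miRNAs, and with set means removed for 0.

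The 10 miRNAs most like miR-206-3p were miR-148a-3p (0.64), miR-223-5p (0.63), miR-222-3p (0.60), miR-125b-1-3p (0.55), miR-323-3p (0.55), miR-221-3p (0.54), miR-224-5p (0.53), miR-143-3p (0.53), miR-3535 (0.50) and miR-193a-5p (0.50). The 5 least like it were miR-378a-5p (-0.62), miR-181a-1-3p (-0.55), miR-378a-3p (-0.54), miR-499-5p (-0.51) and miR-133a-5p (-0.50). miR-133b-3p had r = -0.27 and miR-1a-3p had r = -0.45. miR-222-3p and miR-221-3p come from a shared precursor locus and are known to be abundant in vessel wall and progenitor cells. miR-222-3p had 44.0 RPM in MI+CIH 1, against 19.3 RPM in MI 2, and 72.9 and 65.5 RPM in MI+CIH 6 and 7, against 55.1 RPM in MI 4. In set B it had 221 to 482 RPM in the MI+CIH hearts, against 150 RPM in MI 1 and 299 RPM in MI 3. Since miR-222-3p is named for its likeness in these same hearts, its values only describe that likeness.

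These likenesses rested on few hearts. Without the 2 hearts farthest from the median after set means were removed, MI 1 and CIH 3, only 1 of the 10 most like miRNAs was among the 10 again, and by Spearman's rho 4 were. The r of miR-148a-3p was 0.62 without them and that of miR-222-3p 0.35. Within set A (11 hearts) r was 0.56 for miR-148a-3p and 0.77 for miR-222-3p, and within set B (6 hearts) it was 0.74 and 0.63. In set A only CIH 3 and MI+CIH 1 had more than 2 miR-206-3p reads, so r there rests on them. Of the 10 most like miRNAs, 1 was among the 10 highest within set A, and 0 without those hearts.

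**Figure D4:**
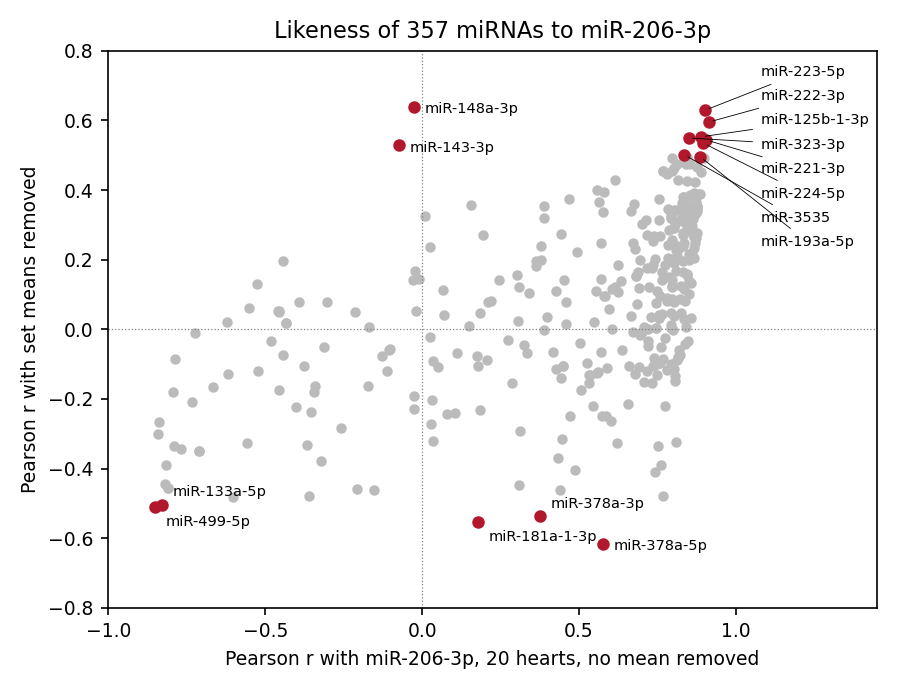
Likeness of 357 miRNAs to miR-206-3p, as Pearson's r over 20 hearts with no mean removed (horizontal) and with library set means removed (vertical), with the 10 highest and 5 lowest on the vertical axis in red. Most points lie to the right, where 106 have r over 0.8, and spread about 0 on the vertical axis, where the highest is 0.64.

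Markers of other cells also differed between the hearts, some with and some against miR-206-3p, and their part in its level was not tested. Besides miR-206-3p, 1 of the other 3 entries of the skeletal muscle list, miR-133b-3p, was in the table. The summed level of all 5 fibroblast markers was 1278 to 7192 RPM in MI+CIH hearts, 382 to 4118 RPM in MI hearts, 191 to 438 RPM in CIH hearts and 404 to 1932 RPM in sham hearts. The 1932 RPM was in sham 1, and the other sham hearts had 404 to 439 RPM. That of all 6 heart muscle markers was 506 to 1870 RPM in MI+CIH hearts, 1323 to 3992 RPM in MI hearts, 1963 to 4701 RPM in CIH hearts and 1895 to 4315 RPM in sham hearts. Most of the heart muscle sum was miR-499-5p, and its members differed. The log2 difference of miR-208a-3p in MI+CIH against sham hearts was also negative, at -1.82. miR-208a-5p had 47.9 to 104 RPM in MI+CIH hearts 2 to 5 and 1.55 to 4.08 RPM in MI+CIH hearts 1, 6 and 7, against 2.74 to 5.94 RPM in sham hearts. miR-208b-3p overlapped, with 3.52 to 99.3 RPM in MI+CIH hearts and 6.49 to 41.7 RPM in sham hearts. In such bulk libraries fewer cells of a type and less RNA per cell cannot be told apart.

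Leukocyte markers (5 of 5 in the table) summed to 361 to 1930 RPM in MI+CIH hearts, 207 to 1599 RPM in MI hearts, 248 to 505 RPM in CIH hearts and 281 to 652 RPM in sham hearts. Not every member followed the sum: miR-142a-3p had 0 to 4.25 RPM in set B hearts, against 8.79 to 19.1 RPM in sham hearts. Epithelial markers (6 of 6) summed to 105 to 988 RPM in MI+CIH hearts, 61.7 to 742 RPM in MI hearts, 18.1 to 138 RPM in CIH hearts and 23.6 to 101 RPM in sham hearts. CIH 3, the CIH heart with 4.74 RPM of miR-206-3p, had the highest epithelial sum of set A, 138 RPM, and the lowest heart muscle sum of the CIH hearts, 1963 RPM. MI 3, with 370 RPM of miR-206-3p, had the lowest epithelial sum of the infarcted hearts, 61.7 RPM. The liver marker miR-122-5p had 0.278 to 22.8 RPM in MI+CIH hearts, 0.138 to 19.5 RPM in MI hearts, 0.387 to 7.01 RPM in CIH hearts and 0.439 to 0.877 RPM in sham hearts. It was highest in MI+CIH 5, MI+CIH 3, MI 3 and MI+CIH 4, which are 4 of the 5 hearts with the highest miR-206-3p. CIH 3 had 0.387 RPM of it, the lowest of the CIH hearts. Both neural markers summed to 58.3 to 271 RPM in MI+CIH hearts, 106 to 738 RPM in MI hearts, 96.9 to 120 RPM in CIH hearts and 106 to 141 RPM in sham hearts, with the 738 RPM in MI 3.

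The erythrocyte list (3 of 3) summed to 1122 to 5687 RPM in MI+CIH hearts, 108 to 934 RPM in MI hearts, 600 to 1986 RPM in CIH hearts and 333 to 3282 RPM in sham hearts. The lowest of all, 108 RPM, was in MI 3. Most of this sum was miR-451a. miR-144-3p had 0.487 to 3.37 RPM in MI+CIH hearts 2 to 5, against 7.42 to 26.9 RPM in sham hearts. The endothelial list (2 of 2) summed to 3162 to 50262 RPM in MI+CIH hearts, 5397 to 47505 RPM in MI hearts, 5976 to 10970 RPM in CIH hearts and 8459 to 10682 RPM in sham hearts. The smooth muscle list (3 of 3) summed to 33783 to 272853 RPM in MI+CIH hearts, 26240 to 196214 RPM in MI hearts, 134653 to 246629 RPM in CIH hearts and 199055 to 261504 RPM in sham hearts. The endothelial sum was at least 24768 RPM and the smooth muscle sum at most 41996 RPM in the set C libraries, MI+CIH 6, MI+CIH 7 and MI 4. Most of these sums was miR-126a-3p and miR-143-3p, and the other members went the other way in set C. There miR-126a-5p had 367 to 481 RPM, against 1275 to 1821 RPM in sham hearts. miR-145a-5p had 1405 to 2252 RPM, against 494 to 1327 RPM, and miR-145a-3p had 245 to 357 RPM, against 110 to 142 RPM. No marker of any of these lists was at 0 in every library.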

How the data were processed

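Per the labels' protocols, RNA was extracted with Trizol from flash-frozen hearts, and a NEBNext kit for small RNA was used on 3 µg of it per library. The submitters' processing notes name mm10, Bowtie and DESeq 1.8.3, with no role for each. The deposited table heads its columns as TPM, but by its values they are RPM, computed by the authors with no length: each column sums to 1000000, and 100% of values are whole multiples of 1 read (tolerance 0.05 reads), from which reads were recovered.

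limma 3.58.1 (R 4.3.3, trend, two-sided, Benjamini-Hochberg, threshold 0.05) modelled log2(RPM + 1) by group, using all 20 libraries (16 residual degrees of freedom, prior 5.90), for the 360 entries that reached 5 RPM in 4 or more libraries. edgeR 4.0.16 and DESeq2 1.42.0 on recovered reads were alternatives. The member and lists were chosen with earlier results of these data known; named are the lists' members and the 10 most and 5 least like miRNAs. Library sets came from average-linkage clustering on 1 minus Pearson's r, cut into 3; set A alone, set B alone and leaving out sham 1 and MI 2 were chosen after seeing the data. The fit was tested on simulated data. Between same-numbered libraries of 2 groups, r of the deviations from group means ran from -0.71 to 0.87. Such r also carries the library sets, so it cannot show or exclude pairing, and the main fit used none.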

Additional observations from a re-analysis of the deposited data

Results flagged for a closer look

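In 24 groups of hearts, for 6 miRNAs, the highest and lowest RPM were set against the others of the group with Dixon's 95% critical value. On this scale 6 values in 5 hearts passed. Chance passes the value in about 1 of 20 groups only where levels are normally distributed, which was not shown for RPM. The check was not repeated on the log2 scale, so no excess over chance is read from it. The levels of miR-206-3p were known when it was chosen, so its 2 values here are a description. MI 3 stood apart with 370 RPM of miR-206-3p, against 0.138 to 2.29 RPM in the other MI hearts. CIH 3 stood apart with 4.74 RPM, against 0 to 0.140 RPM in the other CIH hearts. MI 1 stood apart with 458 RPM of miR-133b-3p, against 88.3 to 141 RPM in the other MI hearts. sham 1 stood apart with 189056 RPM of miR-1a-3p, the lowest of the sham hearts, and with 39017 RPM of miR-148a-3p, the highest of them. MI 4 stood apart with 84389 RPM of miR-148a-3p. MI 4 is the only MI heart of set C, whose MI+CIH hearts 6 and 7 had 153904 and 126837 RPM, so library set and level cannot be told apart there.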

How the results depend on the processing

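The log2 difference of miR-206-3p moved by more than the spread between hearts, the pooled SD of the groups compared, under these settings. In MI against sham hearts it was -0.52 with the set term, 0.0281 in set A alone, 7.53 in edgeR and 8.14 in DESeq2. In CIH against sham hearts it was 3.71 in edgeR and 3.82 in DESeq2. For MI+CIH against sham it was 3.87 with a pseudocount of 5 RPM, 2.17 with the set term, 1.63 in set A alone, 7.96 in edgeR and 8.37 in DESeq2. For MI+CIH against CIH it was 1.65 with the set term and 1.11 in set A alone. For MI+CIH against MI that spread was 2.965. Falls from 3.15 to 0.43 in edgeR and 0.24 in DESeq2 did not pass it, so this cut-off does not show that difference to be stable. The edgeR and DESeq2 values against sham rest on 5 sham reads and are no bounds. Leaving out 1 library at a time gave 0.78 to 3.56 (MI against sham), -0.10 to 0.74 (CIH against sham), 5.37 to 6.53 (MI+CIH against sham), 2.27 to 5.05 (MI+CIH against MI) and 4.85 to 6.01 (MI+CIH against CIH). Without both sham 1 and MI 2 it was 5.85 in MI+CIH against sham hearts and 2.27 in MI+CIH against MI hearts. Whether the replicate numbers pair the libraries is not known. With the replicate block the log2 difference of miR-206-3p was 2.95, 0.79, 6.32, 3.38 and 5.54 in the same 5 comparisons, with 0, 0, 218, 0 and 211 miRNAs called.

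Counts of called miRNAs moved further. MI against sham gave 114 without both sham 1 and MI 2 (108 higher), 39 in DESeq2 (35 higher), and 0 to 113 with 1 library left out, most without MI 2. CIH against sham gave 1 in DESeq2. MI+CIH against sham gave 135 with no filter, 112 with median-of-ratios scaling (61 higher, 51 lower), 114 with TMM (51 higher, 63 lower), 0 with the set term, 2 in set A alone, 85 in edgeR (52 higher) and 148 to 239 with 1 library left out. These scalings moved the median of all entries there to 0.12 and -0.08. MI+CIH against MI gave 2 with the set term and 0 to 3 with 1 library left out. MI+CIH against CIH gave 97 with median-of-ratios scaling (49 higher), 90 with TMM (37 higher), 0 with the set term and in set A alone, 75 in edgeR (38 higher), 133 in DESeq2 and 162 to 234 with 1 library left out.

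Directions reversed for called companions. Between MI+CIH and sham hearts, miR-133a-3p was -0.0203 with TMM, -0.13 with the set term and -0.0697 in set A alone. miR-486a-5p was -0.48 with the set term and in set A alone, and miR-486a-3p was -0.45 and -0.48. miR-208a-3p was 0.17 in set A alone. miR-24-3p was -0.33 with median-of-ratios scaling, -0.55 with TMM, -0.53 in edgeR and -0.32 in DESeq2. Between MI+CIH and CIH hearts, miR-133a-3p was -0.0211 with TMM, and miR-486a-5p was -0.68 with the set term and in set A alone, miR-486a-3p -0.67 and -0.70. miR-24-3p was -0.51, -0.70, -0.68 and -0.49 with median-of-ratios scaling, TMM, edgeR and DESeq2. The causes were not tested. Of the other values of the named companions, 110 lost a call, 39 gained one and 2084 changed no call, some of these uncalled values with a turned sign. Of the 10 miRNAs most like miR-206-3p, 4 were shared by rho, 1 without the 2 farthest hearts, 4 with group means removed and 6 with no mean removed.

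Depth limits the low end: a level under 3 reads, 0.165 to 1.51 RPM by library, was not told from 0.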
